A study of Mus musculus with 55 samples.

Results

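The genes described here are 10 members of the metal-binding and antioxidant defence of mouse liver: the metallothioneins Mt1 and Mt2, the transcription factor gene Nfe2l2 and its repressor gene Keap1, and the NRF2 targets Nqo1, Gclc, Gclm, Hmox1, Txnrd1 and Srxn1. They were listed by symbol, with earlier results of these data known, and all 10 were found among the 34490 gene symbols that both sequencing batches of the study share. Across the study, Mt1 was lower in undamaged livers without Rnf43 and Znrf3 and far higher in females than in males at 1 month. Keap1 was higher in the undamaged mutants, a difference that no longer passed the test when any of 16 of the 25 libraries was left out. Nqo1 and Srxn1 were higher in the mutants 4 days after chronic damage, where 27.6% of all genes passed the test.

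Metallothioneins are small cysteine-rich proteins that hold zinc and copper, and in liver their genes respond to metals through the factor MTF1, and to glucocorticoids and acute phase cytokines. Nfe2l2 encodes NRF2, a factor that binds antioxidant response elements together with small MAF proteins. KEAP1 marks NRF2 for destruction until electrophiles or oxidants modify its cysteines, so NRF2 is controlled largely at the protein level, which RNA counts do not show.

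The study deleted Rnf43 and Znrf3, which encode ubiquitin ligases that clear WNT receptors from the cell surface, and sequenced RNA of whole livers. All mice were C57BL/6 adults, 8 to 16 weeks old at the start, and all of them, controls included, carried floxed alleles of both genes. In R&Zdel livers (del) the deletion was made in hepatocytes, by an AAV8 virus with Cre under the hepatocyte promoter TBG (1-month, partial hepatectomy and batch 2 3-month mice) or by tamoxifen in mice with AlbCreERT2 (7-month mice and the whole of batch 1). R&Zflox controls (flox) received a null virus or oil. Undamaged livers were taken 1, 3 or 7 months (1M, 3M, 7M) after deletion, from 11 del and 14 flox mice, and the inducer and the time since deletion cannot be fully told apart. In the chronic damage (CD) groups, mice received repeated injections of the hepatotoxin CCl4 and were taken 4, 50 or 170 days after the last dose, with 2 libraries per group except for 1 flox library at 50 days, all male and all of batch 1. Changes with chronic damage are taken against undamaged batch 1 males, of 3M and 7M in flox and of 7M only in del. Damage and time since deletion therefore cannot be fully told apart in them, and the baselines of the genotypes are unlike. The 2 flox libraries at 170 days are titled so in the labels, but the study's own sample list gives them at 50 and at 170 days, so the time of every flox value at 170 days is uncertain, and with it the makeup of the flox group at 50 days. In the partial hepatectomy (PHx) groups, livers were taken 7 or 21 days after surgery, with 3 libraries per group, all of batch 2. Cells other than hepatocytes kept both genes, and in whole liver fewer cells of a type and less RNA per cell cannot be told apart.

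Counts were used for 53 libraries, of which 48 could be placed in a group, with total counts from 11721687 to 38692089 (median 22982428) over the 53. The 7 hepatocyte markers examined (Alb among them) were detected in every group. Whole-gene counts of Rnf43 and Znrf3 were higher in undamaged del livers (log2 fold change 1.66 ± 0.28 (SE) and 1.41 ± 0.18). These counts do not show which exons were read, so they are no check of the deletion. 3 control libraries stood apart in metallothionein level: the female flox 7M library of batch 1, flox CD 170 d replicate 1 and flox PHx 7 d replicate 3, and results that rest on them are given with and without them. Levels are given as normalised CPM, library-size-scaled counts (CPM) with TMM scaling factors set within a batch. Fold changes come from edgeR's quasi-likelihood test, with p-values adjusted over all genes of a fit. A gene was called at an adjusted p under 0.1. The test gives no standard error (SE). Each SE is the absolute log2 fold change over the square root of the test statistic, which is rough at low counts. The labels do not state that the libraries of a group came from separate mice, while the study's methods count libraries as mice, and p-values measure the spread between these libraries.

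Promoter sequences show which recognition letters lie near the start of each gene. RefSeq promoters of GRCm38.p6, 250 bases before to 50 after each start, were found for 8 of the 10 genes, with 3 starts for Txnrd1. Both strands were searched for the metal response core TGCACNC or TGCGCNC, the antioxidant response core TGACNNNGC and the element TGANTCAGC. The last is named the longer element here, but it has as many letters as the antioxidant core and only more of them fixed. TGACTCAGC matches both the antioxidant core and this element. Of 32851 promoters of this length, 25.7% held the metal core at least once and 1.97% held it 3 or more times, 12.4% held the antioxidant core and 1.19% the longer element. The Mt1 promoter held the metal core 3 times and the Mt2 promoter 4 times, and the Mt2 and Srxn1 promoters each held the longer element once. The Gclm promoter also held the metal core 3 times, at -138, -72 and 28, and the Srxn1 promoter held it once, at -19, so this core was not particular to the metallothioneins. Printed are the metal cores of the metallothioneins and, for each gene that held one, an antioxidant core or longer element. Capitals mark the motif, positions count its first base from the start, and a match on the opposite strand is shown as read on the gene's strand.
Mt1 metal core at -23 (chr8:94179058-94179080, + strand): tcccgctgTGCACACtggcgctc
Mt1 metal core at 3 (chr8:94179083-94179105, + strand): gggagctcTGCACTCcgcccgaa
Mt1 metal core at 21 (chr8:94179101-94179123, + strand): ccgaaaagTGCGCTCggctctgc
Mt2 metal core at -223 (chr8:94172387-94172409, + strand): atcgcctcTGCACCCggcccctc
Mt2 metal core at -128 (chr8:94172482-94172504, + strand): agacccttTGCGCTCagctcctt
Mt2 metal core at -50, opposite strand (chr8:94172560-94172582): gggagggcGTGTGCAggctctgt
Mt2 metal core at 5, opposite strand (chr8:94172614-94172636): ttcgggtcGTGCGCAggcccagg
Mt2 longer antioxidant element at -79 (chr8:94172531-94172555, + strand): agggggtgTGACTCAGCgcgggggg
Srxn1 longer antioxidant element at -45 (chr2:152105471-152105495, + strand): attcacccTGAGTCAGCggccgggc
Gclm antioxidant core at -134, opposite strand (chr3:122245415-122245439): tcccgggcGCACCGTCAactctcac
Txnrd1 antioxidant core at -92 of its second start, opposite strand (chr10:82859106-82859130): ggatttttGCTTTGTCAttctgaca
Nfe2l2 antioxidant core at -240, gene on the - strand (chr2:75704887-75704911): agcccaccTGACTCCGCcatgcccc
The Nqo1 and Keap1 promoters held none of these letters within the window, which says nothing of elements elsewhere. The Mt1 and Mt2 genes lie side by side on chromosome 8, with 5315 bases between the Mt2 exons and the Mt1 exons in the annotation of the counts (mm10).

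The 10 genes differed widely in level. Per kilobase of exon, in the 8 undamaged flox males of batch 2, Gclm, the modifier subunit of glutamate-cysteine ligase, had the highest level at 130.3 ± 18.2 normalised CPM per kilobase (mean ± SD, n = 8). Gclc, its catalytic subunit, followed at 65.1 ± 41.3 and Mt1 at 35.1 ± 17.01. Txnrd1 (20.3 ± 3.39) and Nfe2l2 (20.3 ± 4.85) were alike, Hmox1 (11.3 ± 8.38), Srxn1 (8.14 ± 3.28) and Keap1 (7.10 ± 2.04) lay within each other's spread, and Nqo1 (2.40 ± 2.34) and Mt2 (2.22 ± 2.42) were lowest. In the 3 undamaged flox males of batch 1 the 6 highest genes came in the same order, from Gclm at 91.5 ± 7.89 to Hmox1 at 10.25 ± 1.38 (n = 3). Nqo1 and Hmox1 were far less even between replicates in batch 2, where the median within-group SD of log2 level was 1.16 and 0.82, respectively, than in batch 1, where it was 0.16 and 0.17. Nqo1 had a count of 0 in 3 batch 2 libraries and Hmox1 in 1, each of which allows a level of up to 0.14 to 0.24 normalised CPM (3 counts, counting error only), so small changes of these genes were not detectable in batch 2.

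Mt1, the more abundant metallothionein, was 2.31-fold lower in undamaged del livers. Among 1M males of batch 2, Mt1 was at 19.9 and 17.97 normalised CPM in flox and at 9.52 and 11.9 in del. Among 1M females it was at 526.3 and 291 in flox and at 80.9 and 152 in del. In batch 2 males at 3M it was at 54.2, 20.3 and 18.9 in flox and at 8.95 in the del library, and at 7M at 39.7, 43.5 and 55.7 in flox and at 26.9, 12.4 and 23.9 in del. In all 4 of these sets del lay below flox with no overlap. Sets this small, with 1 to 3 libraries of a genotype, can separate by chance. The share of all genes that do so was not counted, here or for the other members. In the 7M males of batch 1 the groups overlapped, with 1 flox library at 31.4 and del libraries at 36.4 and 24.1.

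Over the 25 undamaged libraries, with terms for sex and batch, the mean of the 3 times gave a log2 fold change of -1.21 ± 0.26 for Mt1 (adjusted p = 0.010, edgeR). It kept its sign in all 38 alternatives, from -1.42 to -1.06, with adjusted p from 7.69e-05 to 0.56 and 33 of them called. Without the batch 2 del 3M library it was -1.20 with adjusted p = 0.12, and without the flox 7M female of batch 1 it was -1.26 (adjusted p = 0.013). In this mean 2 of the 10 genes were called, Mt1 and Keap1, against 2.58% of all genes tested. Hepatocyte markers were also lower in these del livers, 3 of 7 called. Their summed level was 60730 to 135800 normalised CPM in the undamaged del libraries of batch 2 and 111400 to 153400 in flox. At 1M the summed level of 10 acute phase genes was 5274 to 7759 in del and 8992 to 11210 in flox, with no overlap. In batch 2 at 3M and 7M the acute phase sums of del and flox overlapped. The part of either list in the fall of Mt1 was not tested.

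No member was called at a single time after deletion, against 0.498% of all genes at 1M, 0.226% at 3M and 0.576% at 7M (edgeR). Unadjusted p (edgeR) was under 0.05 for 2, 4 and 1 members at these times, and for 994, 826 and 1142 of the 12848 genes tested. DESeq2 called 1, 1 and 0 members. The share of all genes that DESeq2 called is not given beside these or its later counts, which do not set the members against other genes. For Mt1 the log2 fold change was -1.36 ± 0.42 at 1M (adjusted p = 0.26), -1.64 ± 0.55 at 3M and -0.62 ± 0.38 at 7M. The difference between the 7M and 1M effects was 0.74 ± 0.55, with a reversed sign of -0.08 when no sex term was fitted. In the 3 tests of a difference between times no gene at all was called (0%), and no member was called by DESeq2. Unadjusted p (edgeR) was under 0.05 for 0 (3M against 1M), 0 (7M against 1M) and 1 (7M against 3M) of the members. It was under 0.05 for 655, 751 and 537 of the 12848 genes tested.

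Mt1 also differed by sex. In the 8 libraries at 1M, females had 21.5 times the Mt1 level of males in flox livers and 10.9 times in del livers, and no female overlapped a male. The log2 fold change of females over males, with a genotype term, was 3.94 ± 0.33 (adjusted p = 6.52e-05), and the call held in all 15 alternatives (3.65 to 4.202, adjusted p from 8.11e-49 to 0.00072). Mt1 was the 1 member called, against 1.1% of all genes. Mt2 was at 9.83 and 4.14 in flox females, 0.66 and 0.04 in flox males, 1.15 and 2.63 in del females and 0.33 and 0.09 in del males, with females above males in both genotypes and a log2 fold change of 3.72 ± 1.53 that was not called (adjusted p = 0.62). Among 10 acute phase genes, Lcn2 (3.12 ± 0.61) and Apcs (1.56 ± 0.27) were called higher in females. Gclc in del livers was at 52.8 and 51.4 in females and 201.4 and 193 in males, with no overlap, while in flox livers the sexes overlapped (log2 fold change -1.08 ± 0.37, adjusted p = 0.44). Without flox 1M replicate 1, a male, the Gclc value was -1.46 and called (adjusted p = 0.053).

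**Figure D1:**
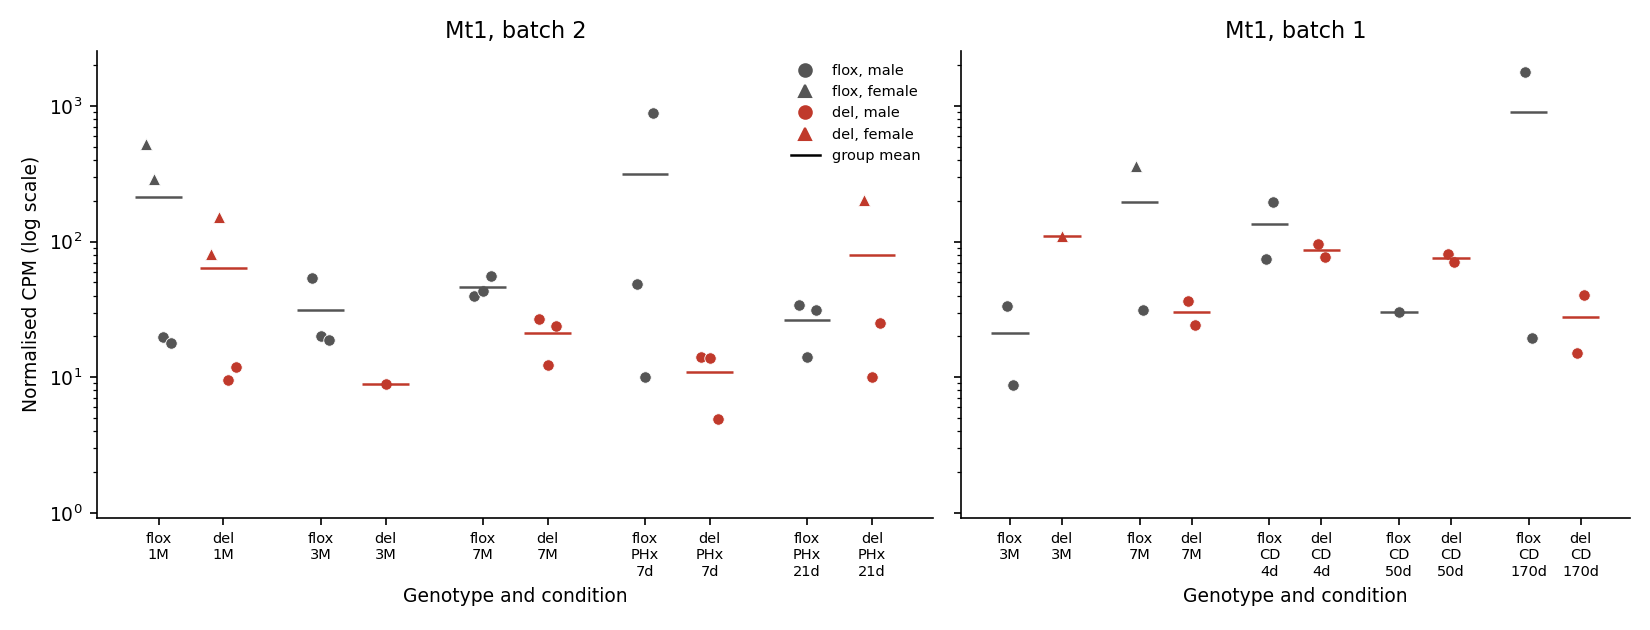
Mt1 level of each of the 48 libraries in normalised CPM on a log axis, batch 2 on the left and batch 1 on the right, grouped by genotype and condition (triangles are females, circles males, lines arithmetic group means). Females sit above males of their group at 1M, del males sit below flox males at 1M, 3M and 7M in batch 2, and the 2 highest males are the flox libraries at 1784 (CD 170 d) and 881 (PHx 7 d).

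Mt2 had lower counts than Mt1 in every library. They were 10.4% of the Mt1 counts in the median library of batch 1 (4.599% to 19.8%, n = 18) and 1.45% in batch 2 (0% to 21.1%, n = 30), where 11 libraries had 3 or fewer Mt2 counts. In undamaged livers the mean log2 fold change of Mt2 was -1.71 ± 0.70 (adjusted p = 0.29). Its levels at 7M in batch 2 were 0.55, 0.60 and 1.12 in flox and 0.17, 0.13 and 0.35 in del, with no overlap, and in 3 of the 5 sets of the same batch, sex and time del lay below flox, in 1 above it.

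After chronic damage the metallothioneins did not pass the test in any comparison, and their highest value came from 1 library. At 4 days Mt1 was at 74.6 and 195 in flox and 96.5 and 77.7 in del, against 33.5, 8.77 and 31.4 in undamaged flox males and 36.4 and 24.1 in undamaged del males of the same batch. All 4 damaged libraries were thus above all 5 undamaged males, with log2 fold changes over undamaged of 2.47 ± 1.08 in flox (adjusted p = 0.24) and 1.59 ± 1.21 in del (adjusted p = 0.32). At 50 days the flox library was at 30.3 and del at 80.5 and 71.4. In the libraries titled 170 days flox was at 1784 and 19.6 and del at 15.2 and 40.1.

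The flox library at 1784 (CD 170 d replicate 1) also had Mt2 at 354, against 1.44 in the other flox library and 1.63 and 4.59 in del. Its summed level of 10 acute phase genes was 75010 normalised CPM, against 24060 in the next highest library of batch 1, and its neutrophil marker sum was 90.6, against 60.6, in each case the highest of the 18 libraries. With it, the del over flox log2 fold change at 170 days was -5.03 ± 1.51 for Mt1 and -5.84 ± 1.76 for Mt2 (adjusted p = 0.30 for both). Without it the values were 0.50 and 1.11, and with it as the only flox library both were called (adjusted p = 0.0020). The acute phase and neutrophil part in the level of this library was not tested.

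After partial hepatectomy Mt1 was called at 7 days, on 1 high control. Flox libraries were at 48.7, 10.01 and 881 normalised CPM and del libraries at 14.02, 13.85 and 4.92, so the groups overlapped. The log2 fold change was -4.83 ± 1.02 (adjusted p = 0.058), the only member called there against 0.352% of all genes. Without flox replicate 3, at 881, it was -1.41 (adjusted p = 1), and without any del replicate the call was lost too (-5.05 to -4.47, adjusted p from 0.20 to 0.34). Mt2 was at 0.99, 0.58 and 23.6 in flox and was not called (adjusted p = 0.19, edgeR). It had no count in the 3 del libraries, which allows up to 0.15 to 0.17 normalised CPM in each. Flox replicate 3 had a summed level of 10 acute phase genes of 13460 normalised CPM, against 14250 in flox replicate 2. Its neutrophil marker sum was 3.35, against 0.34 to 9.33 in del. The part of these in its Mt1 level was not tested.

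At 21 days Mt1 was at 34.2, 14.2 and 31.1 in flox males and at 10.1 and 25.0 in del males, and the del female was at 203. The log2 fold change with a sex term was -0.69 ± 0.90 (adjusted p = 0.91), and without a sex term it was 1.56. No member was called at 21 days, against 0.423% of all genes (edgeR), and DESeq2 called 0. Unadjusted p was under 0.05 for 0 members and for 1108 of the 12773 genes tested (edgeR). Against undamaged 1M livers, no member was called in flox at 7 days (0.0235% of all genes called) or 21 days (0%), or in del at 7 days (0.0157%) or 21 days (0%). Unadjusted p (edgeR) was under 0.05 there for 2, 0, 1 and 0 members, and for 739, 885, 637 and 627 of the 12773 genes tested. DESeq2 called 1, 0, 0 and 0 members (its share of all genes is not given). Mt1 in flox at 7 days was 3.71 ± 0.96 above 1M (adjusted p = 0.51), and 0.29 without replicate 3. The difference between the PHx effects of del and flox was called for no gene at either time (0%), and DESeq2 called 0 members. At 7 and 21 days, 2 and 0 members had an unadjusted p under 0.05 (edgeR), as did 607 and 736 of the 12773 genes tested.

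Nfe2l2 RNA, which encodes NRF2 itself, was not called in any comparison. In undamaged livers its mean log2 fold change was 0.04 ± 0.17 (adjusted p = 0.97), and in 4 of 5 sets of the same batch, sex and time del and flox overlapped. At CD 4 d it was at 68.3 and 56.5 in flox and at 93.3 and 96.5 in del, the 2 highest of the 18 batch 1 libraries, with a log2 fold change of 0.66 ± 0.34 (adjusted p = 0.19, and from 0.040 to 0.48 over 14 alternatives). At CD 50 d it was at 72.5 in flox and at 34.4 and 62.3 in del.

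Keap1, which encodes the adaptor that marks NRF2 for degradation, was 1.54-fold higher in undamaged del livers. In batch 2 at 1M it was at 37.7 and 34.0 in flox males, 45.5 and 52.7 in del males, 40.8 and 55.5 in flox females and 55.9 and 68.9 in del females. At 3M it was at 12.3, 29.5 and 29.9 in flox and 70.8 in del, and at 7M at 38.5, 41.9 and 30.1 in flox and 65.8, 35.9 and 55.6 in del. In batch 1 7M males it was at 46.6 in flox and at 57.7 and 62.1 in del. Del lay above flox with no overlap in 4 of the 5 sets, and at 7M in batch 2 the groups overlapped. Sets this small can separate by chance, and the share of all genes that did so was not counted. The batch 2 flox libraries at 3M also had lower total counts (11721687 to 13576955) than the del library (20733832). The part of depth in the 3M values of Keap1 and the other members was not tested.

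The mean log2 fold change of Keap1 was 0.62 ± 0.18 (adjusted p = 0.086), near the threshold. It was above 0 in all 38 alternatives (0.41 to 0.85, adjusted p from 0.040 to 0.75) and called in 15 of them. Leaving out any of 16 of the 25 libraries lost the call, most of all the batch 2 del 3M library (0.41, adjusted p = 0.75). After damage Keap1 was not called: at CD 4 d it was at 50.5 and 45.8 in flox and 43.3 and 41.9 in del (-0.12 ± 0.16, adjusted p = 0.63).

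**Figure D2:**
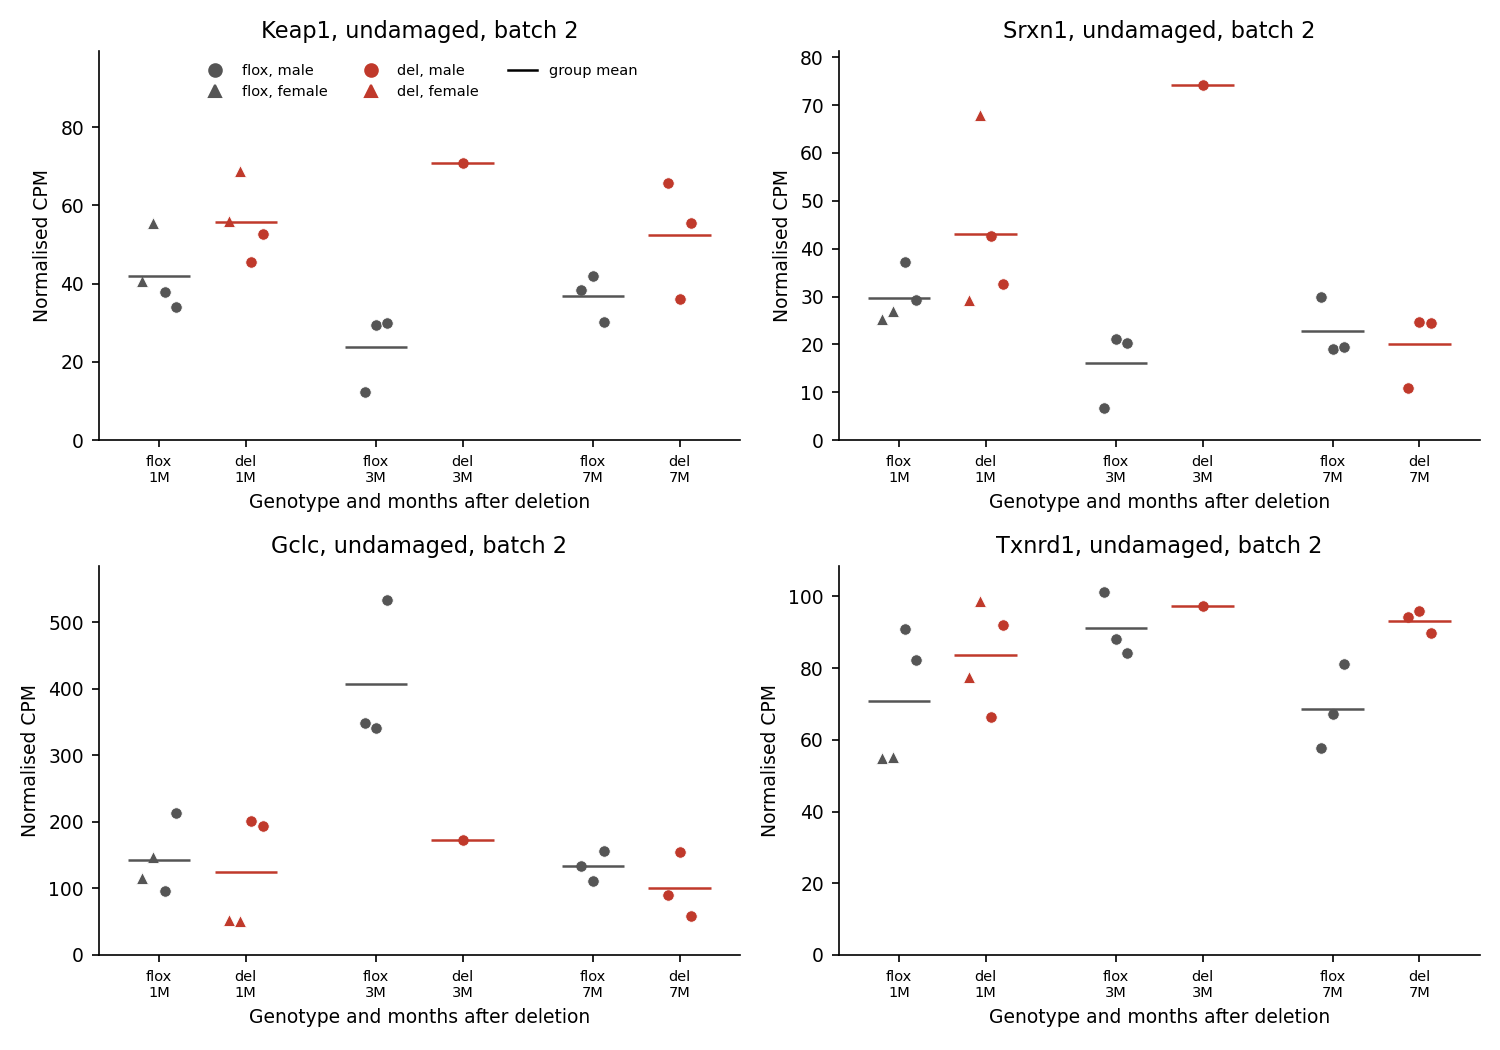
Keap1, Srxn1, Gclc and Txnrd1 in the 18 undamaged libraries of batch 2 in normalised CPM, by genotype and months after deletion (triangles are females, circles males, lines group means). Keap1 is higher in del at 1M within each sex and at 3M, Gclc is higher in flox at 3M than at 1M or 7M, and at 3M del is the 1 library at 70.8 for Keap1 and 74.1 for Srxn1.

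Srxn1, which encodes sulfiredoxin, the enzyme that restores overoxidised peroxiredoxins, was not called in undamaged livers (mean 0.73 ± 0.24, adjusted p = 0.15). At 3M it was at 6.65, 21.1 and 20.3 in flox and at 74.1 in the del library of batch 2, and at 20 and 30.7 in flox and 37.4 in del, a female, in batch 1 (1.63 ± 0.46, adjusted p = 0.27). In batch 1 alone the 3M value was -0.01. In 3 of 5 sets del lay above flox and in 2 they overlapped, and the same counts held for Txnrd1, which encodes cytosolic thioredoxin reductase (mean 0.29 ± 0.13, adjusted p = 0.34).

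The glutathione synthesis genes and Hmox1 had mean log2 fold changes below 0 in undamaged del livers and were not called. Gclc was at 348.7, 340.6 and 533 in batch 2 flox at 3M and at 173 in del, and its mean log2 fold change was -0.75 ± 0.26 (adjusted p = 0.18). Del lay below flox in 3 of 5 sets for Gclc and for Gclm, whose mean was -0.13 ± 0.12 (adjusted p = 0.73). For Hmox1, which encodes the haem-degrading oxygenase, the mean was -0.87 ± 0.38 (adjusted p = 0.33). Nqo1, the quinone reductase that is a standard readout of NRF2, had a mean of 0.66 ± 0.60 (adjusted p = 0.76), with levels from 0 to 11.6 in batch 2 flox males.

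The largest called difference among the NRF2 genes was that of Nqo1 4 days after chronic damage. Its level was 4.45 and 4.96 normalised CPM in flox and 29.2 and 23.4 in del, and the groups did not overlap. The log2 fold change of 2.54 ± 0.21, 5.80-fold, had an adjusted p of 0.00080, and it was called in all 14 alternatives (2.38 to 3.04, adjusted p from 4.1e-18 to 0.032). Srxn1 was at 41.0 and 41.9 in flox and 75.7 and 66.9 in del, with no overlap and a log2 fold change of 0.84 ± 0.20, 1.79-fold (adjusted p = 0.022, from 0.0039 to 0.14 over 14 alternatives). Without flox CD 4 d replicate 1 Srxn1 was at 0.82 and no longer called. These 2 members of 10 were called in a comparison in which 27.6% of all genes were called, 14.6% of all genes higher.

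**Figure D3:**
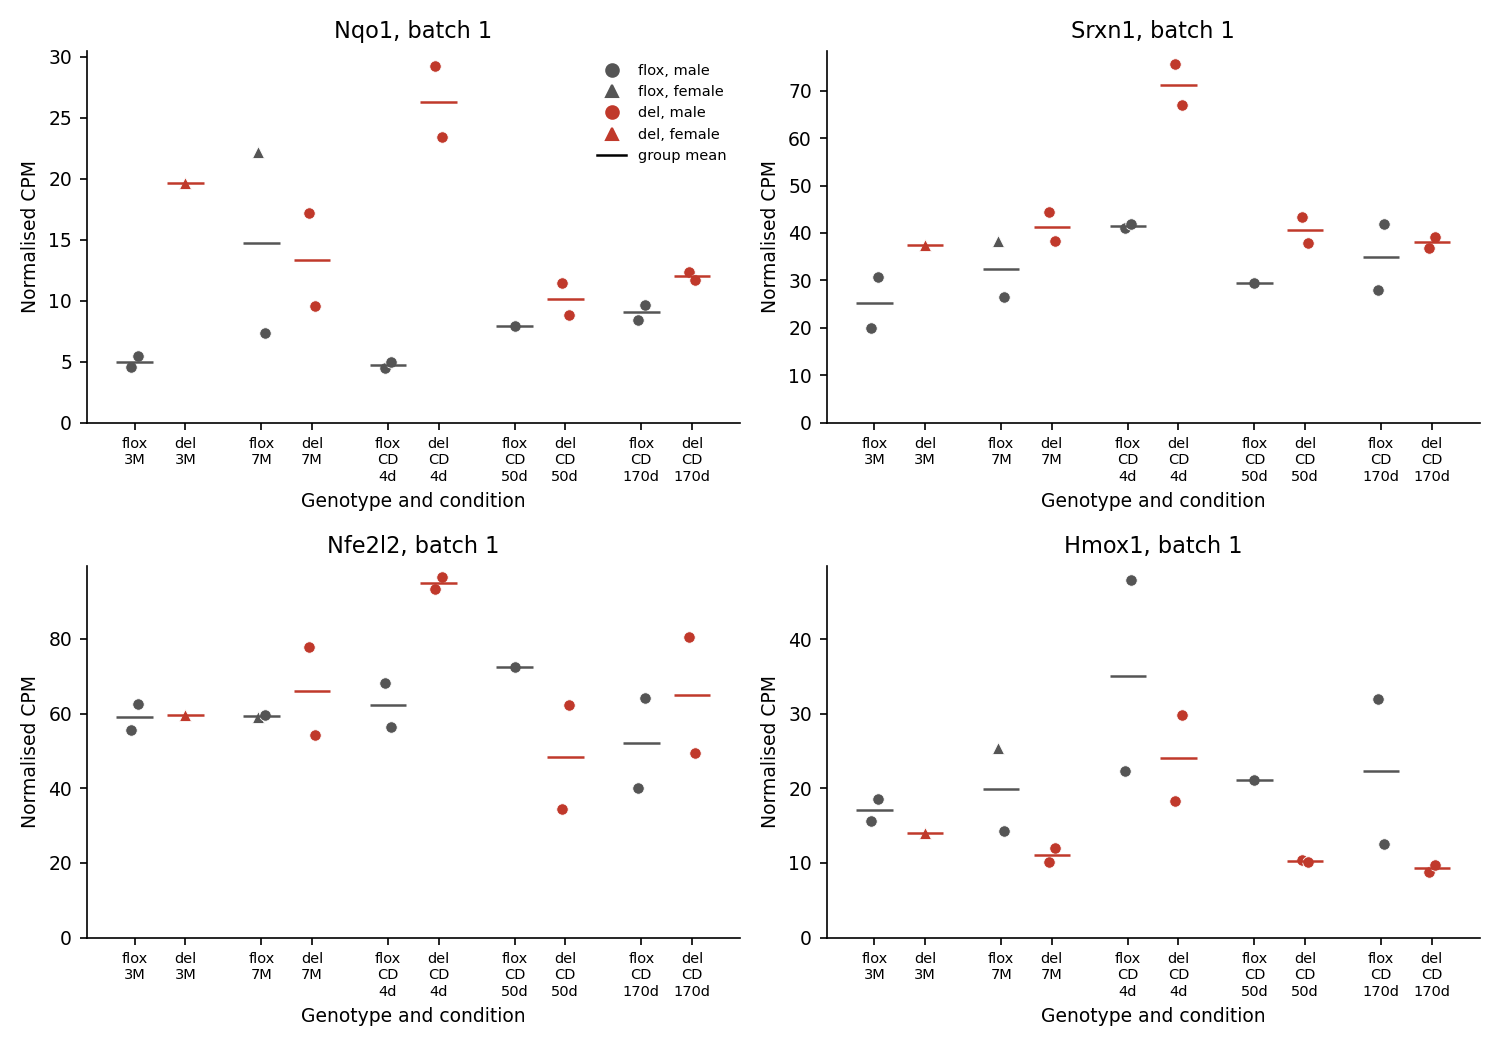
Nqo1, Srxn1, Nfe2l2 and Hmox1 in the 18 grouped libraries of batch 1 in normalised CPM, by genotype and condition (triangles are females, circles males, lines group means). The del libraries at CD 4 d are the 2 highest for Nqo1 (29.2 and 23.4), Srxn1 and Nfe2l2, while for Hmox1 the highest library is a flox library at CD 4 d (47.9).

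The other 4 NRF2 targets were not called at 4 days. Txnrd1 was at 78.1 and 76.1 in flox and 75.0 and 71.2 in del (-0.02 ± 0.17, adjusted p = 0.95), Gclm at 148.0 and 159 in flox and 146 and 120 in del (-0.15 ± 0.22), and Gclc at 139 and 165 in flox and 103 and 76.3 in del (-0.71 ± 0.38, adjusted p = 0.22). Hmox1 was at 22.3 and 47.9 in flox and 18.3 and 29.8 in del, with overlap (-0.49 ± 0.45, adjusted p = 0.48), and its sign turned to 0.18 without flox CD 4 d replicate 2.

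These directions depend on the scaling. In CPM without a scaling factor the median gene was 0.60 higher in del at CD 4 d on the log2 scale (0.26 at CD 50 d and 0.19 at CD 170 d), and changes are therefore given relative to it. Without the factor 5 members were called higher at CD 4 d, with Nfe2l2 at 1.18 (adjusted p = 0.048), Txnrd1 at 0.49 and Keap1 at 0.39 added, and the signs of Txnrd1, Keap1, Gclm, Hmox1 and Mt2 turned, while 43.8% of all genes were called. Nqo1 and Srxn1 were called higher under both.

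The same libraries differed in cell type markers. The 5 cholangiocyte markers (Krt19, Krt7, Epcam, Sox9, Spp1) were all called higher in del at CD 4 d, with a summed level of 2704 and 4286 in del and 93.9 and 164 in flox, of which Spp1 gave 2535 and 4022 in del. Hepatocyte marker sums were 87810 and 69540 in del and 131000 and 139100 in flox. In the del libraries at 50 days the cholangiocyte sum was 607 and 915 and Nqo1 was at 11.4 and 8.84, against 112 and 7.91 in the flox library. Undamaged del males of batch 1 had Nqo1 at 17.2 and 9.55 with cholangiocyte sums of 68.0 and 159, and undamaged flox males had Nqo1 at 4.54 to 7.32. The part of ductal cells in the Nqo1 difference was not tested.

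**Figure D4:**
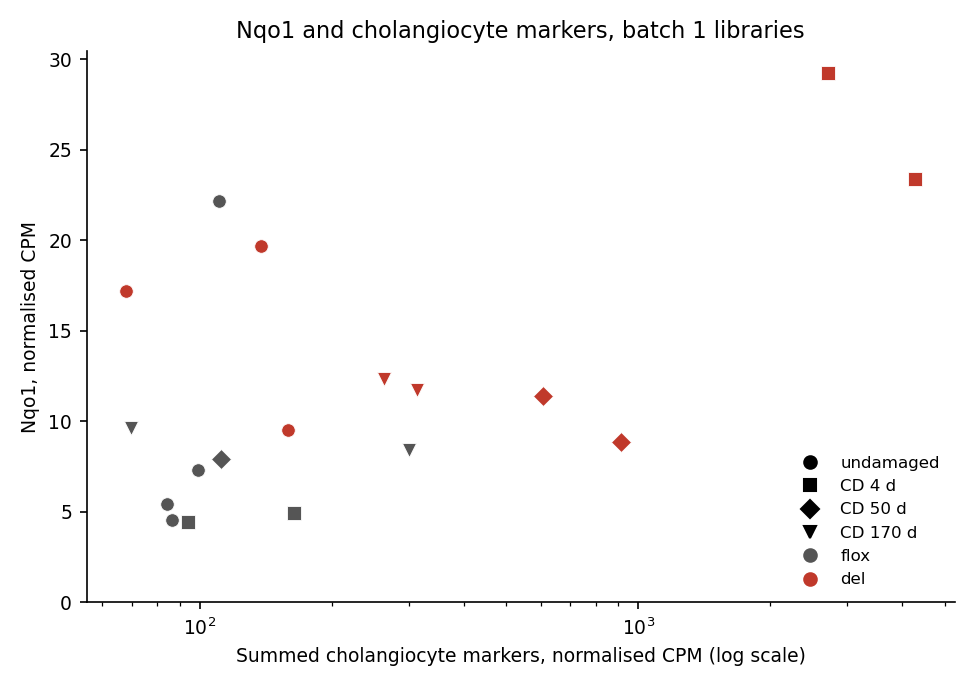
Nqo1 level against the summed level of 5 cholangiocyte markers (log axis), both in normalised CPM, for the 18 grouped libraries of batch 1, with colour for genotype and shape for condition. The 2 del libraries at CD 4 d lie apart at the upper right, and the undamaged libraries at 22.2 (flox) and 19.7 (del) are the 2 females of the batch.

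Compared with undamaged males of the same batch, Srxn1 was higher 4 days after the last CCl4 dose in both genotypes. These undamaged males were of 3M and 7M in flox and of 7M in del, so time since deletion differed as well. In undamaged males Srxn1 was at 20, 30.7 and 26.4 in flox and at 44.4 and 38.3 in del. The rise at CD 4 d was 0.70 ± 0.20 in flox (adjusted p = 0.072) and 0.85 ± 0.22 in del (adjusted p = 0.011). The flox call was lost in 4 of the 5 fits that left out 1 flox library: without the undamaged 7M or 3M replicate 2 library (adjusted p = 0.15 and 0.17), or without CD 4 d replicate 1 or 2 (0.22 and 0.40).

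In flox, Srxn1 was the 1 member called at CD 4 d, against 7.58% of all genes. In del, Srxn1, Nqo1 (1.04 ± 0.28, adjusted p = 0.014) and Hmox1 (1.18 ± 0.42, adjusted p = 0.044) were called, 3 of 10 against 44.3% of all genes. Hmox1 was at 10.2 and 12.1 in undamaged del males and at 15.6, 18.5 and 14.3 in undamaged flox males, and its log2 fold change in flox was 1.13 ± 0.37 (adjusted p = 0.11), and 1.58 and called without flox CD 4 d replicate 1 (adjusted p = 0.064). The summed level of 10 macrophage and Kupffer cell markers was 915.5 and 1843 in flox at CD 4 d against 427 to 664.6 in undamaged flox livers of batch 1, and 627.1 to 1099 in del against 168.7 to 425.4, and its part in the Hmox1 values was not tested. The Hmox1 call in del was lost without undamaged del 7M replicate 1 (adjusted p = 0.19) or CD 4 d replicate 2 (0.76, adjusted p = 0.29).

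For Nqo1 the change with damage at 4 days was also compared between genotypes. The 2 baselines differ in time since deletion (3M and 7M in flox, 7M only in del), and the part of this in the difference was not tested. In flox its level was 4.54, 5.46 and 7.32 in undamaged males and 4.45 and 4.96 at CD 4 d (-0.28 ± 0.27, adjusted p = 0.63), while in del it went from 17.2 and 9.55 to 29.2 and 23.4. The difference of the effects was 1.33 ± 0.39 (adjusted p = 0.062, from 0.025 to 0.20 over 18 alternatives), the only member called against 14.7% of all genes. It was called in 12 of the 18, and lost without del 7M replicate 2 (0.97), flox 7M replicate 1 (1.12) or any of the 4 libraries at CD 4 d (1.14 to 1.46).

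At 50 days Gclm was called lower in del, against a flox group of 1 library that is assumed to vary like the other groups. Gclm was at 183 in the flox library and at 81.7 and 108 in del, 1.87-fold lower (log2 fold change -0.90 ± 0.26, adjusted p = 0.094), the only member called against 7.6% of all genes. Without del CD 50 d replicate 1 it was -0.66 (adjusted p = 0.26), and with no scaling factor -0.62 (adjusted p = 0.28). With both flox libraries titled 170 days taken as 50 days, so that flox had 3 libraries, it was -1.15 (adjusted p = 0.011), and Gclm and Txnrd1 were called, among 3071 of the 11358 genes tested. Over the 13 alternatives the adjusted p of Gclm ran from 0.011 to 0.92. Against undamaged del males, at 183 and 127, Gclm was at -0.66 ± 0.22 (adjusted p = 0.064), and with no scaling factor at -0.36 (adjusted p = 0.32). Txnrd1 was at 88.2 and 84.3 in undamaged del males and at 50.4 and 50.2 at CD 50 d (-0.74 ± 0.17, adjusted p = 0.020), while the flox library at 50 days was at 70.8 and del against flox was not called (-0.45 ± 0.20, adjusted p = 0.22).

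These 2 of 10 members stood against 26.4% of all genes called in del at 50 days, and both calls were lost without undamaged del 7M replicate 1 (Gclm -0.38, Txnrd1 -0.71). Without CD 50 d replicate 1 the Gclm call was lost too (-0.43, adjusted p = 0.30). In flox at 50 days, with 1 library, no member was called (0.00864% of all genes), none had an unadjusted p under 0.05 and DESeq2 called 0.

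At 170 days no member was called between del and flox, against 0.643% of all genes (edgeR). DESeq2 called 2 (its share of all genes is not given). An unadjusted p under 0.05 was found for 3 members (Mt1, Mt2 and Hmox1) and for 1052 of the 11358 genes tested (edgeR). Hmox1 was at 31.98 and 12.6 in flox and at 8.81 and 9.74 in del, with no overlap (-1.27 ± 0.47, adjusted p = 0.42), and -0.44 without flox replicate 1, the library with high Mt1, and -1.79 and called without flox replicate 2 (adjusted p = 0.070). Nqo1 was at 8.44 and 9.63 in flox and 12.4 and 11.7 in del, also with no overlap (0.41 ± 0.20, adjusted p = 0.61). Against undamaged males no member was called in flox (0.0259% of all genes) or del (0%) by edgeR. DESeq2 called 2 and 0 (its share of all genes is not given). Unadjusted p (edgeR) was under 0.05 for 4 and 1 members, and for 835 and 785 of the 11580 genes tested. The difference between the genotypes' changes was called for no gene (0%), and DESeq2 called 0 members. There 2 members had an unadjusted p under 0.05 (edgeR), as did 659 of the 11580 genes.

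After partial hepatectomy the NRF2 genes showed no called change. At 21 days Srxn1 in del was at 52.8 and 55.1 in males and 25.3 in the female, against 25.9, 18.4 and 7.57 in flox males (1.41 ± 0.69, adjusted p = 0.58). At 7 days it was at 12.7, 67.5 and 4.44 in flox and 50.8, 64.2 and 28.1 in del, with overlap. Over both times Hmox1 ranged from 0.07 to 45.5 normalised CPM in flox and from 0 to 12.98 in del, and Nqo1 from 0.14 to 10.9 in flox and from 0 to 18.7 in del.

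**Figure D5:**
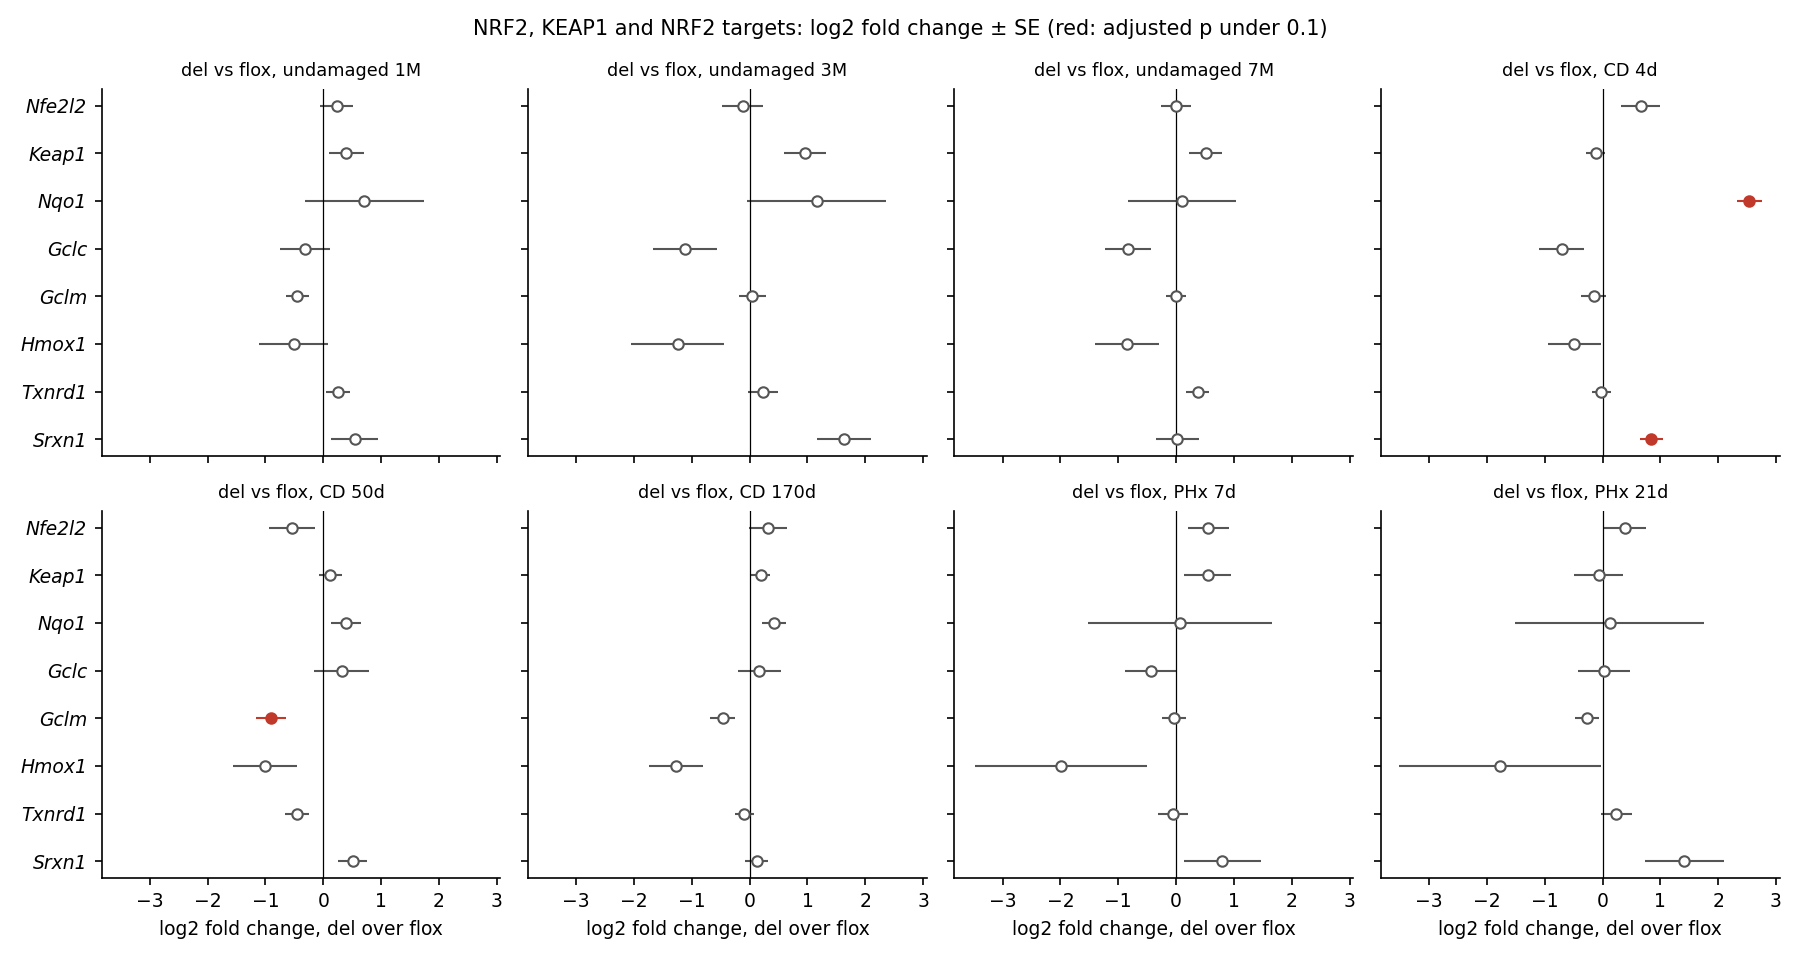
Log2 fold change of del over flox ± SE for Nfe2l2, Keap1 and the 6 NRF2 targets in the 8 comparisons of genotype, with called genes (adjusted p under 0.1) filled red. Nqo1 and Srxn1 at CD 4 d and Gclm at CD 50 d are the 3 filled points, and the wide bars of Nqo1 and Hmox1 after PHx show their spread in batch 2.

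Lists of other genes of these pathways were counted in the same way. In undamaged livers, where 1.63% of all genes were called higher in del and 0.95% lower, 2 of 20 further NRF2 targets tested were called higher in del and 0 lower (median log2 fold change 0.09, against -0.03 over all genes): Blvrb, which encodes biliverdin reductase B (1.03 ± 0.15, adjusted p = 0.00016), and Me1, the NADP-dependent malic enzyme (0.68 ± 0.19, adjusted p = 0.080). Of 17 other antioxidant enzymes 2 were called higher and 0 lower (median 0.04), namely Gpx4 (0.59 ± 0.14) and Prdx6 (0.56 ± 0.13). Of 9 zinc handling genes tested, 0 were called and 8 were below 0 (median -0.51), and the share of all genes below 0 was not counted. Of 10 NRF2 partners and regulators 0 were called (median -0.09). Among 10 acute phase genes 1 was called, Apcs, lower in del (-0.58 ± 0.17). Of 7 glucocorticoid responsive genes tested 0 were called.

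At CD 4 d 9 of 17 other antioxidant enzymes were called lower in del, 0 were called higher and 8 were not called, with a median log2 fold change of -0.68 against 0.06 over all genes, where 13% of all genes were called lower. They included Txnrd2, mitochondrial thioredoxin reductase (-1.20 ± 0.16), Msrb1 (-1.22 ± 0.32), Cat, catalase (-0.82 ± 0.28), and Sod1, cytosolic superoxide dismutase (-0.77 ± 0.29). In the same libraries the hepatocyte marker sum was 87810 and 69540 in del and 131000 and 139100 in flox, and the cholangiocyte sum 2704 and 4286 in del and 93.9 and 164 in flox, and their part in these counts was not tested. Without a scaling factor 2 of the 17 were called lower (Txnrd2 and Msrb1) and 1 higher, with a median of -0.17 against 0.57 over all genes.

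Against 14.6% of all genes called higher and 13% lower at CD 4 d, 2 of 20 further NRF2 targets were called higher, the transporter gene Abcc4 (3.05 ± 0.44) and the carbonyl reductase gene Cbr3 (2.47 ± 0.79), and 3 lower, Esd, Gsr and Prdx1 (-0.74 to -0.51). Without a scaling factor 8 were called higher and 0 lower, with 43.8% of all genes called. Of the zinc handling genes, the importer gene Slc39a10 was called higher (1.90 ± 0.56) and the exporter gene Slc30a10 lower (-1.64 ± 0.37). Of 10 partners and regulators Trim21 was called, higher (1.69 ± 0.47). Of the glucocorticoid responsive genes Sult1e1 (5.60 ± 0.85) and Per1 (2.87 ± 0.63) were called higher, and of the acute phase genes Fgg (-2.27 ± 0.25) and Crp (-1.44 ± 0.20) lower.

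In flox at CD 4 d, where 4.15% of all genes were called higher than in undamaged males and 3.44% lower, 3 of the 20 further targets were called higher: the pentose phosphate genes G6pdx (1.49 ± 0.36) and Pgd (0.92 ± 0.21), and Cbr1 (0.62 ± 0.19). The transporter gene Abcc3 was called lower (-1.23 ± 0.19). Of the other lists, the acute phase gene Saa3 (3.80 ± 0.94, adjusted p = 0.0425, edgeR) and the glucocorticoid responsive gene Sgk1 (1.17 ± 0.30) were called higher. The median over the 20 further targets was 0.37, against -0.01 over all genes.

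Correlations of log2 level between members varied from batch to batch and are given as descriptions. They run over all grouped libraries of a batch, which differ in genotype, sex, condition and depth. The nearest pair was Mt1 and Mt2, with r = 0.86 over the 30 libraries of batch 2 and 0.97 over the 18 of batch 1. Nqo1 and Srxn1 had r = 0.68 in batch 1 and 0.11 in batch 2, Txnrd1 and Keap1 0.70 and -0.22, and Gclm and Txnrd1 0.68 and -0.14. Nfe2l2 and Nqo1 had r = 0.37 in batch 1 and -0.15 in batch 2. Among 7874 genes compared over the 30 libraries of batch 2, the genes most like Keap1 were Coasy, Nr1h3 and Smad5 (r = 0.70, 0.685 and 0.685), with r = 0.73, 0.73 and -0.41 over the 18 libraries of batch 1.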

How the data were processed

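RNA from whole livers was made into SMART-Seq2 libraries and read as single 50-base reads. Per the labels and the study's methods the authors trimmed the reads, aligned them to mm10 with STAR 2.5.0a and counted reads per gene with featureCounts (1.5.0-p3 for batch 1, over exons and without strand per the file headers, and 1.5.0-p1 for batch 2). The deposited values are raw counts per gene. Trimming is given as Trim Galore in the labels and as Sickle in the methods, and the featureCounts versions here are those of the labels and headers, while the methods give a later one. Reads that map to several genes are not counted by this counter's default, so near-identical copies may be undercounted, and overlapping genes on opposite strands cannot be told apart.

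Here the 34490 symbols shared by both batches were analysed with edgeR 4.0.16 in R 4.3.3: TMM scaling, a filter of CPM above 1 in at least 3 libraries (6 in the chronic damage fits), and the quasi-likelihood test with Benjamini-Hochberg adjustment over all genes of a fit. Undamaged livers (25 libraries, 12848 genes) were fitted with sex and batch terms, 1M livers for sex (8 libraries, 11292 genes) with a genotype term, damaged livers alone (11 libraries, 11358 genes) and with undamaged batch 1 males (16 libraries, 11580 genes), and PHx with 1M livers (20 libraries, 12773 genes) with a sex term. Sex and inducer were taken from the study's own sample list, and groups from the labels. The members, the other gene lists and the named genes were chosen with earlier results of these data known. Other list genes are named only where called, by size of log2 fold change, and those beyond the 5 largest of a comparison were added after their values were seen. Not every called list gene is named, and the list genes called in del against undamaged males after chronic damage are not reported here. The scripts were tested on simulated counts. DESeq2 1.42.0, an edgeR likelihood ratio test, other scalings, filters, terms and left-out libraries were tried as alternatives. 5 libraries with contradictory labels enter no comparison, and 2 samples were not analysed here. Replicate numbers did not pair the libraries. The genes most like Mt1 in pattern are not reported here.

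Total counts per library ran from 11721687 to 38692089. A count of 0 is given with the level that 3 counts would have, which covers counting error only.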

Additional observations from a re-analysis of the deposited data

Results flagged for a closer look

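In 50 sets of a gene and a group of 4 or 5 libraries, 3 had a library far from the rest, and chance alone gives about 1 in 20. The flox 7M female of batch 1 had Mt1 at 364 normalised CPM against 31.4 to 55.7 in the 4 males of that group, and Mt2 at 28.3 against 0.55 to 3.08. It is the only female of its group, and 3 of the males are of batch 2, whose levels were normalised separately. The del 1M library replicate 2, a female, had Gclm at 287 against 186 to 203 in the other 3. The change of Nqo1 with chronic damage at 4 days differed between genotypes by a test of the difference itself, by 1.33 on the log2 scale. The undamaged males of the 2 genotypes in this test differ in time since deletion.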

How the results depend on the processing

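Counts of members called are given with the main count in brackets. The share of all genes called also changes with the setting and is not given beside each count, here or for the DESeq2 counts above. These counts show how far the calls depend on the setting, and do not set the members against other genes. DESeq2 called 1 at 1M (0), 1 at 3M (0), 5 in the undamaged mean (2), 2 for sex (1), 2 at CD 170 d (0), and in flox against undamaged 2 at CD 4 d (1), 2 at CD 170 d (0) and 1 at PHx 7 d (0). The likelihood ratio test called 1 at 1M (0), 2 at CD 170 d (0), 2 at PHx 7 d (1), in flox against undamaged 2 at CD 4 d (1), 2 at CD 170 d (0) and 1 at PHx 7 d (0), and 1 for the difference of damage effects at 170 days (0). With no filter on low counts, 1 was called at 1M (0), 2 for sex (1), 6, 4 and 3 at CD 4, 50 and 170 d (2, 1 and 0), 4 and 2 in flox at CD 4 and 170 d against undamaged (1 and 0), 5, 4 and 1 in del at 4, 50 and 170 d (3, 2 and 0), 3 and 3 for the difference of damage effects at 4 and 170 days (1 and 0), 1 in flox at PHx 7 d (0) and 1 for the difference of PHx effects at 7 days (0). With no scaling factor, chosen after seeing the data, 5 were called at CD 4 d (2), 0 at CD 50 d (1), and in del against undamaged 6 at CD 4 d (3) and 1 at CD 50 d (2). The undamaged mean called 1 with RLE size factors, batch 2 alone, no batch term or no sex term, and 0 with males only or with the unassigned libraries placed by their characteristics and no sex term (2). Also asking for a log2 fold change above 1 left 1 in the undamaged mean (2), 1 at CD 4 d (2), 0 at CD 50 d (1), 0 in flox at CD 4 d (1) and 0 in del at CD 50 d (2). Fits of 1 time point called 4 at CD 4 d (2), 3 at CD 50 d (1) and 0 at PHx 7 d (1). PHx 7 d gave 0 with males only or no sex term and 2 when genes had to change more than 2-fold and p was left unadjusted (1), and CD 50 d gave 0 with the unassigned libraries placed and 2 with both flox libraries titled 170 days taken as 50 days (1). Fits without the 1 flox library at CD 50 d could not give its comparisons.

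Replicate numbers did not pair the libraries: 18 correlations between same-numbered libraries ran from -0.39 to 0.40, with 4 above 0.1. With the number as a replicate block, 0 members were called in the undamaged mean (2; Mt1 -1.16, adjusted p = 0.21), 0 at CD 50 d (1; Gclm -0.86) and 0 at PHx 7 d (1; Mt1 -4.07), by edgeR.

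Leaving out 1 library at a time, the counts ran from 0 to 3 in the undamaged mean, 1 to 2 for sex, 1 to 2 at CD 4 d, 0 to 1 at CD 50 d, 0 to 3 at CD 170 d, 0 to 1 in flox at CD 4 d, 0 to 2 in flox at CD 170 d, 2 to 3 in del at CD 4 d, 0 to 3 in del at CD 50 d, 0 to 1 and 0 to 2 for the difference of damage effects at 4 and 170 days, 0 to 1 at PHx 7 d and 0 to 1 in flox at PHx 7 d. Signs turned for Hmox1 at CD 4 d (-0.94 to 0.18), for Mt1 and Mt2 at CD 170 d (-6.01 to 0.50 and -6.83 to 1.11), in flox at CD 170 d (-0.33 to 6.19 and -0.53 to 7.41) and for the difference of damage effects at 170 days (-6.32 to 0.20 and -7.82 to 0.12). Other signs that turned were Hmox1 at CD 4 d with no scaling factor (0.039), Mt1 in the 7M against 1M difference with no sex term (-0.081), Srxn1 at 3M in batch 1 alone (-0.006) and Mt1 at PHx 21 d with no sex term (1.56). The causes were not tested. With 1 to 5 libraries a group, and few counts of Mt2 and Nqo1 in batch 2, small changes were not detectable.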

Other observations

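The 5 libraries whose labels contradict each other were left out of every comparison. Their Mt1 levels ran from 108 to 452 normalised CPM (median 199.5), against 8.77 to 364 in the 4 undamaged flox libraries of batch 1. Nqo1 ran from 19.1 to 28.8, with 3 of the 5 above the highest of those flox libraries (22.2). Gclc ran from 75.8 to 102, with 4 of the 5 below the lowest (101.9). Srxn1 ran from 33.8 to 42.8, with 3 above the highest (38.3).

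Hmox1 and Nqo1 were near 0 in some batch 2 libraries. Hmox1 had 0 to 2 counts in flox PHx 21 d replicate 1, del PHx 21 d replicate 1 and del PHx 7 d replicate 2, and Nqo1 had 0 to 2 counts in flox 1M replicate 1, flox 3M replicate 5, flox PHx 21 d replicate 1 and del PHx 21 d replicate 2. In batch 1 the lowest level was 8.81 normalised CPM for Hmox1 and 4.45 for Nqo1.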
